A study of Mus musculus with 2 samples.

Results

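Amino acids enter and leave cells through carriers of the solute carrier (Slc) gene families, and 6 of these families were followed here: Slc1a, Slc3a, Slc7a, Slc36a, Slc38a and Slc43a. Members were all genes whose symbol is one of these family names followed by a number, which gave 42 of the 33696 genes counted, with 7 in Slc1a, 2 in Slc3a, 15 in Slc7a, 4 in Slc36a, 11 in Slc38a and 3 in Slc43a. The rule uses symbols alone. The libraries were made from cells sorted for the endothelial surface proteins CD31 and CD144 after removal of CD45+ and Ter119+ cells. They came from mammary tumors grown by injecting PyMT-M (High-MAC, rich in macrophages) or PyMT-N (Low-MAC) cells into the mammary fat pad of female C57BL/6 mice. Both are sublines of tumors of the MMTV-PyMT model, in which a mammary promoter drives the polyoma middle T oncogene, and each subline stands for its condition alone. Each condition had 1 library, 3 tumors pooled after sorting, so no difference between conditions could be tested and no p-value or standard error is given. Intervals cover counting error only.

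The families divide the work of amino acid supply. Slc3a2 (CD98) is the heavy chain that carries the light chains Slc7a5, Slc7a6, Slc7a7, Slc7a8 and Slc7a11 to the plasma membrane. Slc7a5 and Slc7a8 exchange large neutral amino acids, Slc7a6 and Slc7a7 exchange cationic for neutral ones, and Slc7a11 takes up cystine in exchange for glutamate. Slc7a1 and Slc7a2 take up arginine and lysine without a heavy chain. Slc1a4, Slc1a5, Slc38a1, Slc38a2 and Slc38a4 carry small neutral amino acids, Slc1a5 and Slc38a1 being known for glutamine, and the other Slc1a members carry glutamate. Slc36a1, Slc38a7 and Slc38a9 work at the lysosome, where Slc38a9 reports arginine to the growth regulator mTORC1.

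Levels were read as unique molecular identifiers (UMIs), each of which marks 1 captured transcript at its 3′ end, summed over the cells of a class and given as CPM, the count scaled to a fixed total of UMIs so that classes of different depth can be compared. Because a transcript is counted once whatever its length, CPM of different genes were compared without a length correction. The PyMT-M library had 7821 barcodes and the PyMT-N library 6974, of which 5777 and 5354 were kept, with a median of 23255 and 18977 UMIs, and 20 barcodes occurred in both libraries. Blood endothelial cells were those with at least 5 UMIs of Pecam1, Flt1, Emcn and Kdr and at most 1 of Krt8, Krt18 and Rhox5. This class held 314 cells in PyMT-M and 1207 in PyMT-N, with 5.44% and 22.5% of the kept cells, although the libraries are labelled endothelial. Kept cells had a gene number within 2-fold of the library's median, and this limit removed more of the class in PyMT-M. Without it the class held 598 cells in PyMT-M and 1243 in PyMT-N. Tumor-rule cells, with at least 3 UMIs of Krt8, Krt18 and Rhox5 and none of Pecam1 and Flt1, numbered 4864 and 3298. Lymphatic cells had at least 3 UMIs of Prox1, Mmrn1 and Reln and numbered 7 and 199, of which 3 and 172 also met the blood endothelial rule. Without the limit on gene number there were 20 and 207 lymphatic cells. Fibroblasts, with Col3a1 at 3000 CPM or more, numbered 44 and 62, and Ptprc+ cells, with at least 1 UMI of that leukocyte gene, 88 and 203.

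All 12 blood endothelial markers had UMIs in the blood endothelial cells of both libraries. They summed to 8935 CPM in PyMT-M and 8365 CPM in PyMT-N, and the 7 tumor markers to 11.2 and 9.62 CPM. These sums are in part set by the class rule, which counts Pecam1, Flt1, Emcn and Kdr and limits Krt8, Krt18 and Rhox5. Of the markers outside the rule, Cdh5 was at 922 and 1078 CPM. Krt7 and Krt19 had no UMI in either library. Epcam and Cdh1 had none in PyMT-M and were at 0.35 and 0.52 CPM in PyMT-N. Lymphatic markers summed to 126 CPM in the PyMT-M and 2338 CPM in the PyMT-N blood endothelial cells, immune markers to 82.6 and 569 CPM and pericyte markers to 364 and 238 CPM. The pericyte sums rested on different genes. Acta2 and Rgs5 were at 218 and 86.4 CPM in PyMT-M against 2.16 and 2.51 CPM in PyMT-N. Abcc9 and Kcnj8 were at 24.5 and 9.14 CPM in PyMT-M against 125 and 108 CPM in PyMT-N. Median depth was 7050 UMIs per blood endothelial cell of PyMT-M against 12844 for PyMT-N. In tumor-rule cells the markers differed between the libraries. PyMT-M cells held Rhox5 at 669 CPM and Krt8 at 268 CPM with Krt18 at 0.06 CPM, and PyMT-N cells held Krt18 at 1003 CPM and Krt8 at 808 CPM with Rhox5 at 14.5 CPM. The epithelial genes Epcam and Cdh1 were near 0 in both, with 3.52 and 0.07 CPM for PyMT-M against 0.41 and 0.11 CPM for PyMT-N, so this class is called by its rule. Of the tumor-rule cells, 78.5% in PyMT-M and 6.16% in PyMT-N were cycling, with at least 3 UMIs over 4 cell cycle genes.

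Of the 42 members, 22 reached 10 CPM in at least 1 class of 50 cells or more, and the other 20 stayed at or below 5.88 CPM in such classes, the level of Slc43a1 in PyMT-N fibroblasts. Slc7a10 and Slc7a12 had no UMI in any kept cell, 14 members had 1 to 49 UMIs in all, and 26 had at least 50. The members together made up 911 CPM in PyMT-M and 959 CPM in PyMT-N blood endothelial cells, and 740 and 698 CPM in tumor-rule cells. A few genes held most of this sum. Slc38a2, Slc3a2 and Slc7a7 gave 52.3% of it in PyMT-M and 54.7% in PyMT-N blood endothelial cells, and in tumor-rule cells Slc3a2 came first in both libraries, with 181.7 and 218 CPM.

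**Figure D1:**
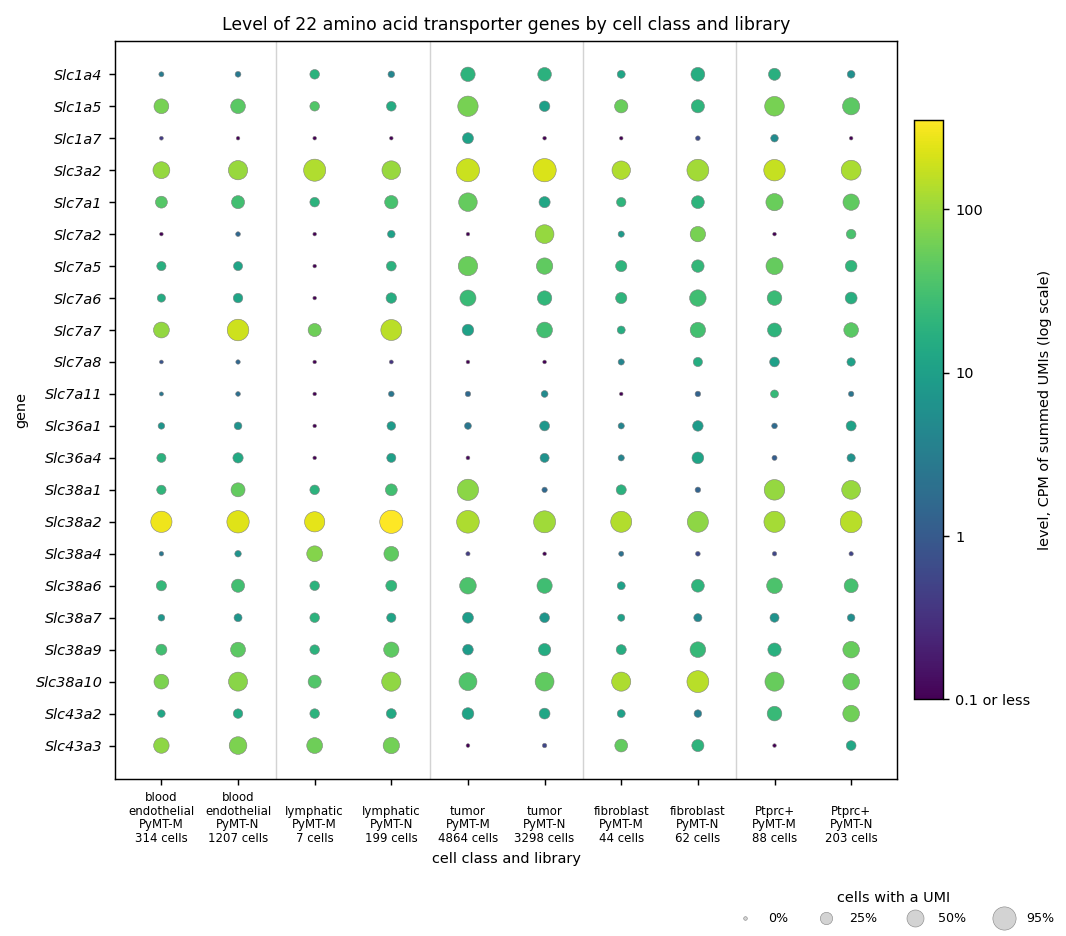
Level of the 22 members that reached 10 CPM, by cell class and library. Color gives CPM on a log scale, with levels of 0.1 CPM or less in the darkest shade, and the size of a point the percent of cells with at least 1 UMI. Slc38a2 and Slc3a2 are bright in every column, Slc43a3 and Slc7a7 are highest in the endothelial columns, and Slc7a2, Slc38a1 and Slc1a7 differ between the tumor-rule columns. The PyMT-M lymphatic and fibroblast columns hold 7 and 44 cells.

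Among the light and heavy chains, Slc3a2 was at 95.5 CPM (95% interval 83.6 to 109) in PyMT-M and 100.2 CPM (95.5 to 105) in PyMT-N blood endothelial cells. Its most abundant partner there was Slc7a7, the exchanger of cationic amino acids, at 93.4 CPM (81.6 to 106) in PyMT-M and 186 CPM (180 to 193) in PyMT-N. The Slc7a7 intervals do not overlap, and log2 of PyMT-M over PyMT-N came to -0.99 (-1.20 to -0.80), just short of 2-fold. In cells that met exactly 1 class rule it was -1.09. It was smaller within cycling state, at -0.89 (-1.15 to -0.65) in non-cycling and -0.65 (-1.13 to -0.21) in cycling blood endothelial cells. A UMI of Slc7a7 was found in 42.99% (37.4 to 48.7) and 81.6% (79.3 to 83.8) of all blood endothelial cells. With each cell of at least 5000 UMIs thinned to 5000 the expected shares were 33.5% and 55.9%, so the order remained at equal depth. Cells with fewer UMIs were left out of these shares. Slc7a5 (LAT1), the exchanger that brings in leucine, was at 17.4 CPM (12.6 to 23.6) and 11.9 CPM (10.3 to 13.6). Slc7a6 was at 14.5 and 11.9 CPM, Slc7a8 at 0.83 and 1.52 CPM, and Slc7a11 at 2.49 and 1.92 CPM. Slc7a7 was thus the leading light chain of the blood endothelial cells in both libraries.

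Slc38a2 (SNAT2), which takes up small neutral amino acids with sodium, was the highest member in blood endothelial cells, at 287 CPM (266 to 310) in PyMT-M and 238 CPM (231 to 245) in PyMT-N. Slc1a5 (ASCT2), a glutamine exchanger, was at 65.6 CPM (55.8 to 76.7) and 42.96 CPM (39.9 to 46.2), a log2 ratio of 0.61 (0.35 to 0.86). Slc38a1 (SNAT1), another glutamine carrier, went the other way, with 20.8 CPM (15.4 to 27.4) in PyMT-M and 49.4 CPM (46.2 to 52.9) in PyMT-N, 2.38-fold lower in PyMT-M. In cells of at least 5000 UMIs thinned to 5000, Slc38a1 was expected in 9.34% and 17.2%. Slc7a1, the arginine carrier, was at 40.7 CPM (33.0 to 49.6) and 30.0 CPM (27.5 to 32.7). Slc43a3, which is known as a carrier of purine nucleobases despite its family name, was at 87.6 CPM (76.2 to 100.3) and 69.7 CPM (65.8 to 73.7). Slc38a10 was at 70.6 and 81.8 CPM, the lysosomal sensor Slc38a9 at 29.9 and 44.5 CPM, Slc38a6 at 23.3 and 29.7 CPM, and Slc36a4 at 18.3 and 13.6 CPM. These neighbours lay within 1.5-fold of each other between the libraries. Slc43a2 and the lysosomal Slc36a1 and Slc38a7 lay between 6.53 and 14.3 CPM.

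A member was compared between libraries where it had at least 50 UMIs over both sums, and counted where it passed 2-fold. In blood endothelial cells 0 of 19 compared members were higher in PyMT-M, where 4.39% of all 11847 genes compared passed 2-fold, and 2 were lower, where 9.89% did. The 2 lower members were Slc38a1 and Slc38a4. The median log2 ratio was 0.05 over the 19 members and -0.07 over all genes. In contrast to Slc38a1, the Slc38a4 call came from lymphatic cells inside the class. Slc38a4 was at 2.49 CPM (6 UMIs) in PyMT-M and 6.59 CPM (113 UMIs) in PyMT-N, and all 113 UMIs lay in the 172 cells that also met the lymphatic rule. In cells of exactly 1 class, the log2 ratio turned to 3.28, from 5 UMIs against 0. Slc38a1 was at 20.9 CPM in PyMT-M and 52.1 CPM in PyMT-N blood endothelial cells without the lymphatic ones, and its log2 ratio was -1.08 in cells of exactly 1 class. The part of the immune and pericyte markers in these differences was not tested.

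**Figure D2:**
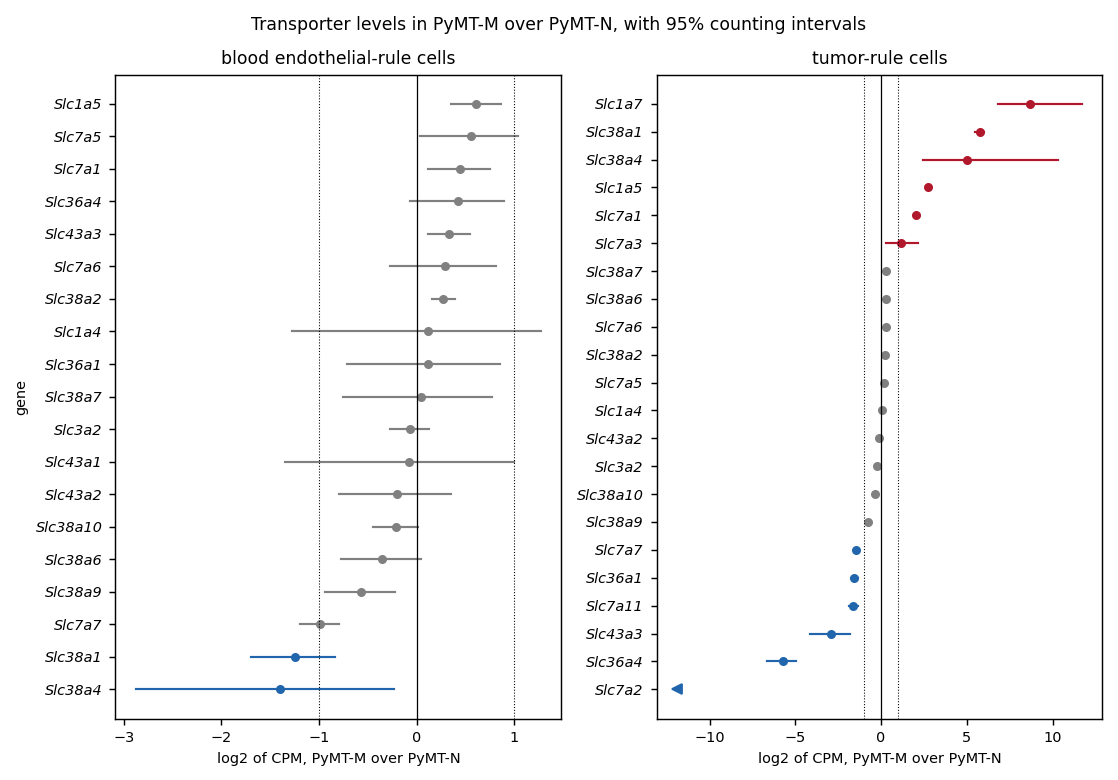
Log2 of CPM in PyMT-M over PyMT-N for the compared members, 19 in blood endothelial and 22 in tumor-rule cells. Points are ratios and bars 95% counting intervals, dotted lines mark 2-fold, red and blue members passed it, and the triangle is a ratio with a count of 0 set to 3 counts. In blood endothelial cells the ratios lie between -1.40 (Slc38a4) and 0.61 (Slc1a5), and in tumor-rule cells Slc1a7 reaches 8.68 and Slc7a2 is at -11.92 with that setting. The horizontal scales differ.

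In lymphatic cells of PyMT-N, Slc38a4 (SNAT4) was at 47.0 CPM (39.4 to 55.8), with a UMI in 37.2% of the 199 cells. The 1035 blood endothelial cells that did not meet the lymphatic rule had 0 Slc38a4 UMIs. With 0 set to 3 counts it was 232-fold higher in the lymphatic cells, a log2 ratio of 7.86 with an interval from 7.54 up. The 7 lymphatic cells of PyMT-M held 4 Slc38a4 UMIs, 76.4 CPM (20.8 to 196). Slc1a5 was lower in PyMT-N lymphatic cells, at 14.6 CPM (10.5 to 19.8) against 47.4 CPM, a log2 ratio of -1.70 (-2.19 to -1.24). Slc38a2 was higher, at 342 CPM (321 to 364) against 218 CPM, and Slc7a7 was 151 against 190 CPM. Slc7a2 was at 10.3 CPM (29 UMIs) against 1.08 CPM (16 UMIs), a log2 ratio of 3.26 (2.33 to 4.24), and 19 of the 29 UMIs lay in the 27 lymphatic cells that did not meet the blood endothelial rule. Tumor markers summed to 122 CPM in the lymphatic cells, with 173 UMIs of Krt8 and 162 of Krt18. The 172 cells that also met the blood endothelial rule could hold at most 1 UMI of Krt8, Krt18 and Rhox5 each. Many of these UMIs therefore lay in the 27 other cells. Slc7a2 was at 39.9 CPM in those 27 cells and at 4.29 CPM in the 172. The part of tumor RNA in this was not tested. The lymphatic rule did not use any of these genes, but the cells of a class share a library, so the values are a description.

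Slc7a2 (CAT-2), the carrier of arginine that is induced in many activated cells, showed the widest gap between the libraries in tumor-rule cells. PyMT-M tumor-rule cells had 0 UMIs of Slc7a2 in 4864 cells, and PyMT-N cells had 7280, or 96.4 CPM (94.2 to 98.7), with a UMI in 61.0% of cells (59.3 to 62.7). With 0 set to 3 counts the level in PyMT-M was 3876-fold lower, a log2 ratio of -11.92 with an interval from -11.62 down. Free RNA in droplets can give UMIs to cells that lack a gene. Slc7a2 in PyMT-N blood endothelial cells was at 1.52 CPM, in 1.66% of cells, at a median of 12844 UMIs against 20774.5 in the tumor-rule cells, and 10 of its 26 UMIs there lay in the 172 cells that also met the lymphatic rule. The related Slc7a1 showed the opposite order, with 50.3 CPM in PyMT-M and 12.5 CPM in PyMT-N, 4.02-fold higher in PyMT-M (log2 2.01, 1.91 to 2.11). Slc7a3, the other cationic carrier of this group, was low in both, at 0.41 and 0.19 CPM (50 and 14 UMIs). In PyMT-N fibroblasts, too, Slc7a2 reached 64.7 CPM (52.6 to 78.8), against 8.15 CPM (4 UMIs, 2.22 to 20.9) in the 44 PyMT-M fibroblasts, and 9 of the 62 PyMT-N fibroblasts also met the tumor rule.

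The glutamine carriers also differed between the tumor-rule cells. Slc38a1 was at 85.8 CPM (84.1 to 87.4) in PyMT-M and 1.59 CPM (1.32 to 1.90) in PyMT-N, 54.0-fold higher in PyMT-M, with a UMI in 79.1% and 2.91% of cells. Slc1a5 was at 64.7 CPM (63.3 to 66.2) and 9.89 CPM (9.20 to 10.6), 6.54-fold higher in PyMT-M. Slc38a2, in contrast, was within 1.2-fold, at 129.5 and 109.7 CPM. Slc1a7, a glutamate transporter known from the retina, had 10.9 CPM (10.3 to 11.5) in PyMT-M and 2 UMIs (0.03 CPM) in PyMT-N, for a log2 ratio of 8.68 (6.82 to 11.73). Blood endothelial cells of PyMT-M held 1 UMI of Slc1a7. Slc38a4 was at 0.42 CPM (51 UMIs) against 1 UMI, a log2 ratio of 4.997 (2.45 to 10.33), far below its level in lymphatic cells.

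Lower in PyMT-M tumor-rule cells were Slc7a7, with 10.7 CPM (10.1 to 11.3) against 30.1 CPM (28.8 to 31.3), and Slc7a11 (xCT), with 1.59 CPM (1.37 to 1.83) against 4.87 CPM (4.39 to 5.40). The lysosomal proton-coupled carrier Slc36a1 was at 2.55 against 7.58 CPM, and Slc36a4 at 0.12 CPM (14 UMIs) against 6.25 CPM (472 UMIs). Slc43a3 was at 0.07 CPM (9 UMIs) against 0.56 CPM (42 UMIs), low in both. In all, 6 of 22 compared members were higher in PyMT-M and 6 lower, where 21% and 25.6% of all 14995 genes compared passed 2-fold in these directions. These shares of the members are near the backgrounds. Slc3a2 (181.7 and 218 CPM), Slc7a5 (54.2 and 48.2 CPM), Slc7a6 (25.5 and 21.3 CPM), Slc1a4 (19.5 and 18.6 CPM), Slc38a6 (34.5 and 28.5 CPM), Slc38a7 (9.14 and 7.35 CPM), Slc38a10 (37.2 and 48.2 CPM) and Slc43a2 (11.5 and 12.4 CPM) stayed within 1.5-fold between the libraries. Pericyte markers summed to 226 CPM in PyMT-M and 70.6 CPM in PyMT-N tumor-rule cells and fibroblast markers to 405 and 614 CPM, and their part in the differences was not tested. Of the pericyte markers, Acta2 alone was at 224 CPM in PyMT-M and 51.1 CPM in PyMT-N, while Notch3 was at 0.02 and 14.8 CPM.

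Cycling differed between the tumor-rule cells, so the ratios were also taken within cycling state, a choice made after the values were seen. Among non-cycling cells, 415 in PyMT-M and 2081 in PyMT-N, Slc38a1 was at 81.9 against 1.71 CPM, Slc1a5 at 52.0 against 7.70 CPM, Slc7a1 at 46.7 against 11.6 CPM and Slc7a2 at 0 against 97.7 CPM, each in the same direction as in the whole class. In non-cycling cells 4 of 19 compared members were higher and 5 lower, and in cycling cells, 3818 and 203, 4 of 18 were higher (Slc1a5, Slc1a7, Slc7a1 and Slc38a1) and 3 lower (Slc7a2, Slc7a11 and Slc36a1). The share over all genes was not taken within cycling state, so these counts have no background of their own. Over the whole class it was 21% higher and 25.6% lower. Slc7a7 was just short of 2-fold in cycling cells (-0.99). In non-cycling cells Slc7a11 no longer passed 2-fold (log2 ratio -0.68), Slc38a9 did (-1.06), and Slc43a3, with 4 and 16 UMIs, turned to 0.47 (-1.57 to 2.10). Slc7a5 in cycling cells was at 55.0 CPM in PyMT-M and 27.7 CPM in PyMT-N, and in non-cycling cells at 47.1 and 55.8 CPM. The part of cycling in the remaining differences was not tested.

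Slc7a11 and Slc7a7 carry matches to the CARE motif (TGATGNAA), the sequence bound by the amino acid response factor ATF4, at 2 places in a promoter. No other member did, so only their sequences are shown, a choice that did not use the levels. They are the 250 bases before the annotated start, from RefSeq on GRCm38.p6, read on the minus strand, with each CARE match that lies wholly before the start in capitals.
Slc7a11 (chr3:50443614-50443863): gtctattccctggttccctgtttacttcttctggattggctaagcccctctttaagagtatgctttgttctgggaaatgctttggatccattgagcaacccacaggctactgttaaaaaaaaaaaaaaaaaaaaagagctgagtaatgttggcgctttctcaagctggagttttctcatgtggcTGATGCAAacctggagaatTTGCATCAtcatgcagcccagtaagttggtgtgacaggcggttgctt
Slc7a7 (chr14:54417945-54418194): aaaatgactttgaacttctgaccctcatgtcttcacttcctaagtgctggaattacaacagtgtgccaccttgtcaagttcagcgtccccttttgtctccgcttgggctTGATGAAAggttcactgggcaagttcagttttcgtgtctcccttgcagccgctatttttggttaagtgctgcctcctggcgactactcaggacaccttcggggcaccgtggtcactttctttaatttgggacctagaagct

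The Slc7a11 matches lay 66 to 59 and 47 to 40 bases before the start, on opposite strands. Of Slc7a7, 1 match lay 141 to 134 bases before the start, and the other spans the start and is not in capitals. Of the 42 members 31 had an entry in the promoter table. CARE, searched on both strands in the 300 bases from 250 before to 50 after a start, was found in 3 of these 31 members, Slc7a11, Slc7a7 and Slc1a4 (9.68%), and in 4.51% of all genes of the table. The antioxidant response motif ARE (TGACNNNGC) was found in 5 of the 31 members (16.1%), Slc7a1, Slc7a6, Slc36a1, Slc38a2 and Slc43a1, and in 14.0% of all genes. A match is a run of letters and was not tested for binding.

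Blood endothelial and tumor-rule cells were next compared within each library, where both classes share the handling. The class rules used none of the members. Of 19 members with at least 50 UMIs in both libraries, 6 were higher in blood endothelial cells in both (12.2% of 12433 genes) and 2 lower (6.12%). Slc43a3 was at 87.6 CPM in blood endothelial against 0.07 CPM in tumor-rule cells of PyMT-M and 69.7 against 0.56 CPM in PyMT-N, with log2 ratios of 10.20 (9.24 to 11.35) and 6.97 (6.52 to 7.45). Slc7a7 followed with log2 ratios of 3.13 (2.92 to 3.33) and 2.63 (2.55 to 2.71), Slc38a9 with 1.74 and 1.57, Slc38a2 with 1.15 and 1.12 and Slc36a4 with 7.30 and 1.12. Slc38a4 was the other, at 2.49 CPM (6 UMIs) against 0.42 CPM in PyMT-M and 6.59 CPM against 1 UMI in PyMT-N, where all its blood endothelial UMIs lay in cells that also met the lymphatic rule. In PyMT-M 5 of the 6 lay outside such cells. Lower in blood endothelial cells were Slc1a4, at -2.75 (-4.06 to -1.70) and -2.79 (-3.25 to -2.37), and Slc7a5, at -1.64 (-2.11 to -1.20) and -2.02 (-2.23 to -1.81). With the total counted without mitochondrial, ribosomal-protein and hemoglobin genes 5 were higher and 3 lower, and with the median log2 ratio of all genes set to 0, 4 and 3. Of the 6 higher members, Slc38a2 and, in PyMT-N, Slc36a4 lay closest to 2-fold. Slc3a2 was at -0.93 in PyMT-M, just short of 2-fold, and -1.12 in PyMT-N. The share over all genes was not taken for these settings. Slc38a1 changed direction between the libraries, at -2.05 (-2.48 to -1.65) in PyMT-M and 4.96 (4.68 to 5.25) in PyMT-N. Its level differed in both classes, with 85.8 CPM in PyMT-M and 1.59 CPM in PyMT-N tumor-rule cells. In blood endothelial cells it was at 20.8 and 49.4 CPM.

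**Figure D3:**
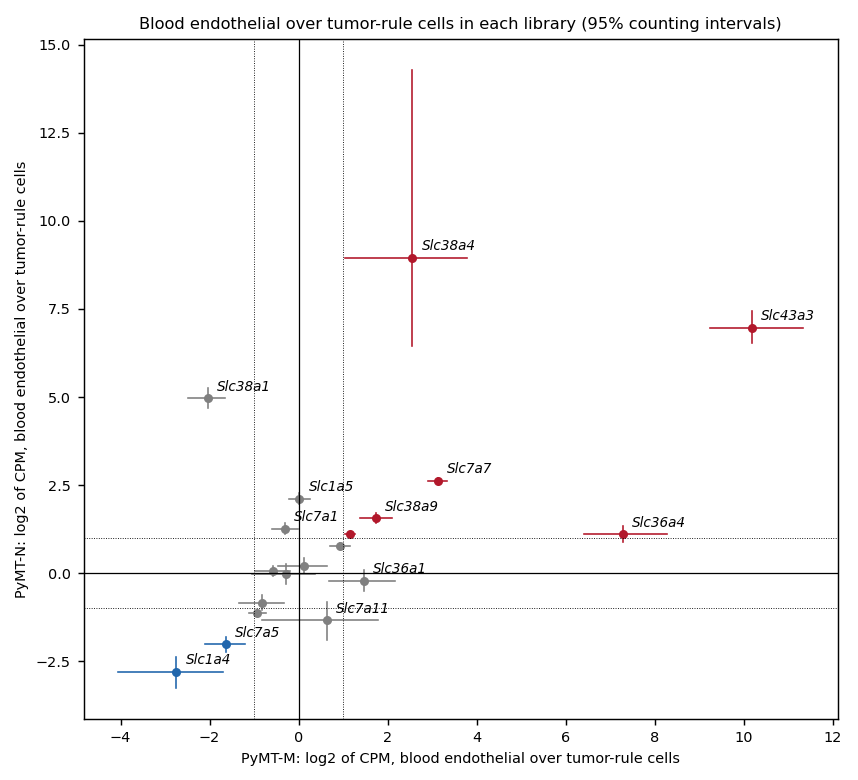
Log2 of CPM in blood endothelial over tumor-rule cells, PyMT-M on the horizontal and PyMT-N on the vertical axis, for the 19 members compared. Lines are 95% counting intervals and dotted lines 2-fold; red and blue members passed it in the same direction in both libraries. Slc43a3 and Slc7a7 lie high on both axes, Slc1a4 and Slc7a5 low on both, and Slc38a1 at -2.05 and 4.96.

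Within the blood endothelial class, cycling cells were 77 of 314 in PyMT-M and 131 of 1207 in PyMT-N, and non-cycling cells 174 and 831. No member of 8 compared passed 2-fold in both libraries, higher or lower, where 3.75% and 1.22% of 5969 genes did. Slc43a3 was closest on the high side, at 130.5 CPM in cycling and 63.9 CPM in non-cycling cells of PyMT-M and 104.1 and 62.6 CPM in PyMT-N (log2 1.03, 0.58 to 1.48, and 0.73, 0.53 to 0.94). Slc7a7 was lower in cycling cells, at 67.4 against 113.7 CPM in PyMT-M and 105.9 against 211 CPM in PyMT-N (log2 -0.76, -1.26 to -0.27, and -0.997, -1.18 to -0.82). Slc1a5 and Slc7a1 had ratios above 0 in both libraries, 0.46 and 0.95 for Slc1a5 and 0.52 and 0.85 for Slc7a1, with PyMT-M intervals that include 0. In tumor-rule cells 0 of 16 members passed 2-fold in both, where 3.34% were higher and 0.243% lower of 11113 genes. Slc1a5 in PyMT-N tumor-rule cells was at 18.0 CPM in cycling and 7.70 CPM in non-cycling cells, whereas in PyMT-M it was at 66.3 and 52.0 CPM. Slc7a5 in PyMT-N was at 27.7 and 55.8 CPM, and in PyMT-M at 55.0 and 47.1 CPM, opposite in direction between the libraries.

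**Figure D4:**
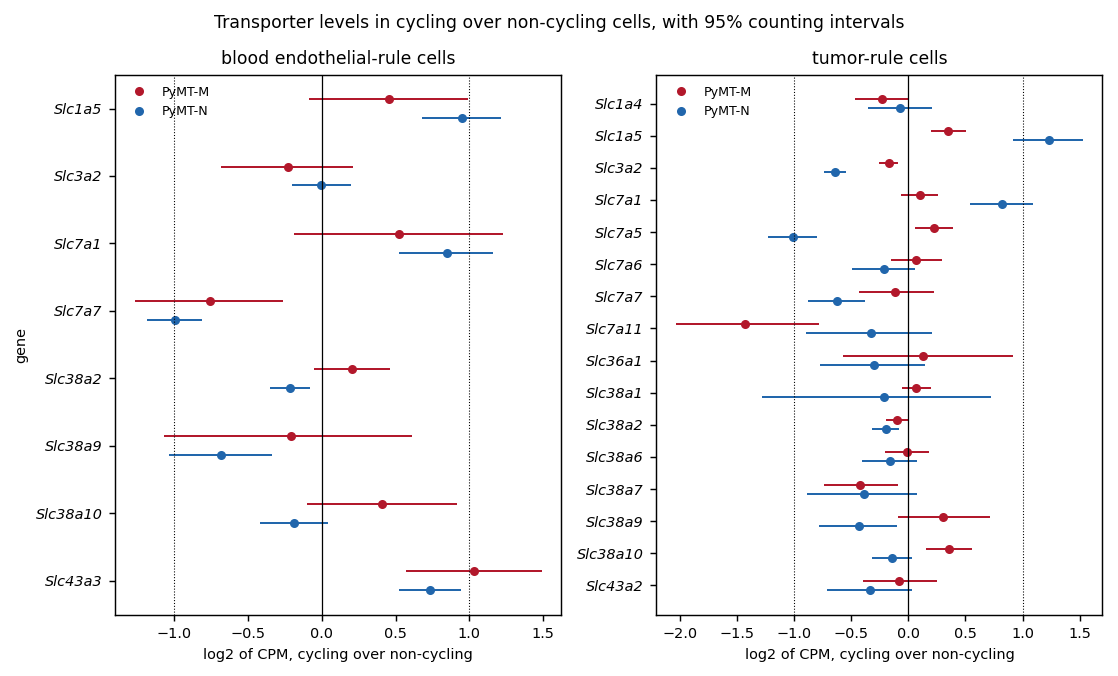
Log2 of CPM in cycling over non-cycling cells, for 8 members in blood endothelial and 16 in tumor-rule cells, PyMT-M in red and PyMT-N in blue. Bars are 95% counting intervals and dotted lines 2-fold. In blood endothelial cells Slc43a3 is to the right and Slc7a7 to the left of 0 in both libraries, and in tumor-rule cells Slc7a5 lies at 0.22 in PyMT-M and -1.01 in PyMT-N.

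Endothelial states were marked by small gene sets among blood endothelial cells that did not meet the lymphatic rule, and 80 of 311 in PyMT-M and 210 of 1035 in PyMT-N lay within 1 UMI of the tip cell limit, and 40 and 248 within 1 UMI of the venous limit. Slc38a1 was lower in cells with venous genes (Ackr1, Selp, Sele and Lrg1) than in the rest in both libraries, at 4.20 against 25.1 CPM in PyMT-M and 33.6 against 70.9 CPM in PyMT-N, with log2 ratios of -2.58 (-5.67 to -0.65) and -1.08 (-1.30 to -0.86). The cells with venous genes were 63 and 515, and the PyMT-M venous value rests on 2 UMIs. Slc7a7 was higher in cells with capillary lipid-uptake genes (Gpihbp1, Cd36, Car4 and Fabp4) in PyMT-N, at 210 against 125 CPM (0.61 to 0.91 on the log2 scale), while in PyMT-M it was 98.0 against 80.3 CPM with an interval that includes 0. In these cells Slc7a1 was lower in both libraries, with log2 ratios of -1.18 (-1.80 to -0.55) in PyMT-M and -0.46 (-0.76 to -0.15) in PyMT-N. Slc43a2 was lower in PyMT-N (-1.59, -1.99 to -1.18), and its PyMT-M interval includes 0. Only some of the contrasts of the 22 members are given, and the share over all genes was not taken. Slc38a1 in cells with tip genes (Apln, Esm1 and Angpt2) was at 26.5 against 11.4 CPM in PyMT-M and 54.6 against 49.6 CPM in PyMT-N. The latter interval includes 0.

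In Ptprc+ cells, 3 of 16 compared members were higher in PyMT-M (13.5% of 9716 genes) and 4 lower (22.1%). The higher ones were Slc7a11, at 23.3 CPM (16.8 to 31.5) against 2.37 CPM (1.09 to 4.50), Slc1a4, at 17.2 against 5.80 CPM, and Slc7a5, at 51.1 against 20.8 CPM. Many of the 42 Slc7a11 UMIs of PyMT-M came from very few cells, as given below, and the counting interval does not cover that. The lower ones were Slc7a2, with 0 UMIs against 33.2 CPM, Slc38a9, at 17.8 against 52.5 CPM, Slc43a2 and Slc7a7, at 19.99 against 42.7 CPM. With the mean over cells in place of the sum, 4 members were higher and 2 lower, and with the median of all genes, -0.11 on the log2 scale, set to 0, 3 and 3. The share over all genes was not taken for either setting. However, 41 of the 88 Ptprc+ cells of PyMT-M also met the tumor rule, against 19 of 203 in PyMT-N, where 57 met the blood endothelial rule. In cells of exactly 1 class, 0 members were higher and 1 lower of 12 compared, and the share over all genes was not taken there. Slc38a1 was at 96.1 CPM in Ptprc+ cells of PyMT-M and 99.7 CPM in those of PyMT-N. Tumor-rule cells held it at 85.8 CPM in PyMT-M and 1.59 CPM in PyMT-N, so the PyMT-M value cannot be told apart from that of tumor-rule cells. Slc43a2 (LAT4), a carrier of branched-chain amino acids and phenylalanine, was at 24.4 and 58.8 CPM. In fibroblasts 2 of 8 compared members were higher in PyMT-M (6.06% of 5937 genes), Slc1a5 at 55.0 against 20.3 CPM and Slc43a3 at 48.9 against 19.6 CPM. Slc7a2 alone was lower (11.1%). With only 44 PyMT-M fibroblasts, of which 11 met the tumor rule, the 2 higher calls were absent in cells of exactly 1 class. Slc38a10 was the most abundant member in PyMT-N fibroblasts, at 144 CPM (125 to 164), and stood at 126 CPM (96.8 to 162) in PyMT-M.

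Genes that act with the transporters were taken from 7 lists chosen with earlier results of these data known. Their counts in tumor-rule cells stand against 21% of all genes higher and 25.6% lower. Unlike the transporters, the lists were not taken within cycling state in either class. Of tumor-rule cells, 78.5% in PyMT-M and 6.16% in PyMT-N were cycling, and the part of this in the list counts was not tested. In tumor-rule cells the list of glutamine and glutamate use had 10 of 14 compared genes higher in PyMT-M and 0 lower, with a median log2 ratio of 1.34 against -0.09 over all genes. Its highest ratios were Asns, the asparagine synthetase, at 261 against 21.8 CPM, and Gls2 at 2.80 against 0.24 CPM. Its lowest were Oat at 53.6 against 62.9 CPM and Glul, the glutamine synthetase, at 15.6 against 27.7 CPM. The ATF4 response list had 13 of 24 higher and 3 lower, with Chac1 (6.91 against 0.32 CPM) and Phgdh, the first enzyme of serine synthesis (312 against 14.7 CPM), highest. Nupr1 (205 against 1119 CPM) and Vldlr (0 against 5.60 CPM) were lowest. These lists share Asns, so their counts are not independent.

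Of the cystine and glutathione list, 7 of 14 were higher and 1 lower in PyMT-M tumor-rule cells, with Chac1 and Srxn1 (39.1 against 9.91 CPM) highest and Gpx1 (234 against 419 CPM) and Ggt5 (0.33 against 4.28 CPM) lowest. The arginine list had 6 of 11 higher and 3 lower. Nos1, a nitric oxide synthase that uses arginine, was at 34.7 CPM against 1 UMI (log2 11.36, 8.88 to 16.66), Gatm at 105 against 1.72 CPM, Ass1 at 146 against 384 CPM and Arg1 at 0.07 against 3.39 CPM. Branched-chain breakdown had 2 of 6 higher and 0 lower, with the aminotransferase Bcat1 at 81.8 CPM against 3 UMIs (log2 11.01, 9.46 to 13.28), Bcat2 at 56.1 against 18.5 CPM, and Bckdha and Bckdk within 1.5-fold. Amino acid sensing had 3 of 24 higher and 2 lower, with Rragd at 18.1 against 0.33 CPM and Sesn2 at 11.1 against 2.98 CPM highest, and Sesn1 at 11.4 against 40.3 CPM and Sesn3 at 0.05 against 197 CPM lowest. The list of other carriers had 2 of 15 higher and 3 lower. In both of these lists each count was a smaller share than among all genes. Of the listed other carriers, Slc29a4 (0.41 CPM against 1 UMI) and the mitochondrial ornithine carrier Slc25a15 (6.12 against 2.21 CPM) had the highest ratios. The taurine carrier Slc6a6 (80.7 against 254 CPM) and the aromatic amino acid carrier Slc16a10 (0.08 against 42.2 CPM) had the lowest.

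In blood endothelial cells, where 4.39% of all genes compared were higher and 9.89% lower, the ATF4 response list had 3 of 24 higher and 1 lower, with Phgdh at 13.7 against 3.50 CPM, Psat1 at 15.8 against 6.65 CPM and Mthfd2 at 31.1 against 14.0 CPM higher, and Ddit4 at 29.9 and Vldlr at 3.74 CPM, against 65.5 and 7.29 CPM, lowest. Arginine use had 1 of 10 higher, the spermidine synthase Srm at 92.6 against 36.6 CPM (next Azin1, log2 0.997), and 2 lower, Gatm at 4.57 against 9.91 CPM and Arg1 at 0 against 3.85 CPM. Slc16a10 was the only other carrier past 2-fold, of 13, with 1 UMI (0.42 CPM) against 98 UMIs (5.71 CPM), a log2 ratio of -3.78 (-9.10 to -1.27). The other ends of that list were Slc25a15 (0.60) and Slc25a12 (0.49) on the high side and Slc25a29 (-0.80) on the low side, on the same scale. Sensing (23 compared), glutamine and glutamate use (10), cystine and glutathione (12) and branched-chain breakdown (5) had 0 in either direction. Their log2 ratios ran from -0.96 (Sesn3) and -0.77 (Castor2) to 0.20 (Rheb) and 0.55 (Sesn2) for sensing. Of glutamine and glutamate use, Asns was at 0.80 and Glul at 0.07. For cystine and glutathione they ran from -0.07 (Gclm) and -0.06 (Hmox1) to 0.40 (Gsr) and 0.41 (Gpx1), and for branched-chain breakdown from -0.07 (Bckdha) and 0.23 (Bckdhb) to 0.40 (Bckdk) and 0.58 (Bcat2).

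**Figure D5:**
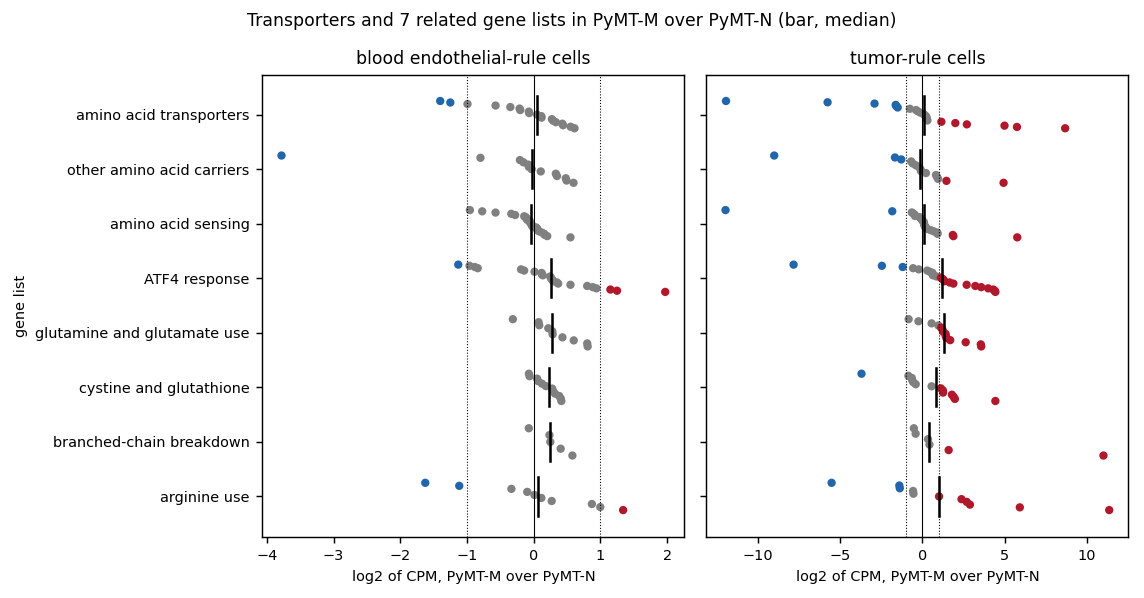
Log2 of CPM in PyMT-M over PyMT-N of the transporters and 7 further gene lists in blood endothelial and tumor-rule cells. Each point is a gene with at least 50 UMIs over both sums, red and blue past 2-fold, a count of 0 being set to 3 counts, and the bar is the median. In tumor-rule cells the medians of the ATF4 response, glutamine and glutamate, and arginine lists lie above 1, and the transporters' median at 0.12. The horizontal scales differ.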

How the data were processed

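Both libraries were made with 10x 3′ v3.1 chemistry. The authors deposited UMI counts, whole numbers per gene and barcode that are not normalized, made with Cell Ranger 8.0.0 per the file headers; the submitters' processing notes name mm39. Promoter sequences and their positions are from RefSeq on GRCm38.p6 and were matched to the members by symbol alone. Kept cells had at least 200 genes, a gene number within 2-fold of the library's median and at most 10% mitochondrial UMIs, as in the study's methods. UMIs were summed per class and library with Python 3.11.15 and numpy 2.4.6. CPM have exact Poisson intervals, shares exact Clopper-Pearson intervals and ratios exact conditional binomial intervals, all at 95% and from scipy 1.17.1, for counting error only. Ratios, intervals and calls were run on Poisson counts simulated from the blood endothelial and tumor-rule sums with known folds. Such counts hold no variation between cells, tumors or libraries, so this checked the computation only. Members with at least 10 CPM in a class of at least 50 cells were given in full; of the 7 lists, the count past 2-fold and the 2 highest and 2 lowest ratios are given, except for values that are not reported here. Listed symbols that the files give under older names (5) were matched through RefSeq synonyms, and Samtor was not matched. The members, classes and lists were chosen with earlier results of these data known. Doublets were not removed; leaving out the 6% of barcodes with the highest Scrublet scores (scanpy 1.11.5) was an alternative. The PyMT-M library held 141067264 UMIs and the PyMT-N library 116150425. Dissociation is described with different enzymes in the labels and the methods. Reads that near-identical copies share can be lost in counting, which was not assessed.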

Additional observations from a re-analysis of the deposited data

Results flagged for a closer look

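Slc38a1 and Slc38a4 passed 2-fold in opposite directions in the 2 main cell classes. Log2 of PyMT-M over PyMT-N came to -1.25 for Slc38a1 and -1.40 for Slc38a4 in blood endothelial cells, and 5.75 and 4.997 in tumor-rule cells. With 1 library per condition the difference between the classes was not tested. The Slc38a4 value in PyMT-N blood endothelial cells came from lymphatic cells, and its tumor-rule value from 51 UMIs against 1.

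Slc7a11 stood out in barcodes that the limit around the median gene number leaves out. Among Ptprc+ barcodes below the endothelial and tumor minimum, those outside that limit had Slc7a11 at 107 CPM (85.2 to 133, 81 UMIs in 398 barcodes) in PyMT-M and 5.51 CPM (1.14 to 16.1, 3 UMIs in 150 barcodes) in PyMT-N. Their median depth was 1482 and 3466.5 UMIs. In PyMT-M, 52 of the 81 UMIs lay in 27 barcodes with at least 3 UMIs of S100a8, a neutrophil gene, at 868 CPM (648 to 1139). In PyMT-N there were 5 such barcodes, and all 3 of the Slc7a11 UMIs came from 1 of them. Among kept cells of this kind, 18 UMIs in 2 of 21 cells gave 117 CPM in PyMT-M and 2 UMIs in 108 cells gave 1.51 CPM in PyMT-N; in PyMT-M all 18 lay in cells with a UMI of the T cell genes Cd3e or Cd3d. The S100a8 split was made after the values were seen.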

How the results depend on the processing

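No paired analysis was possible because each condition had 1 library and no result came from a test; leaving out a replicate was not possible for the same reason. The counts of members past 2-fold between blood endothelial and tumor-rule cells and in both cycling comparisons stayed within 1.5 times of their main value under all alternatives tried, and so did that in tumor-rule cells (12) except for 7 in cycling cells only. The number of members compared changes with the UMI minimum and the cells used. The share over all genes was not taken under the alternatives, so these counts have no background of their own. In blood endothelial cells the count was 1 with at least 200 UMIs and 1 in non-cycling cells, against 2. A count of 2 did not always hold the same members. In cycling cells they were Slc38a1 (log2 ratio -1.14) and Slc43a2 (-1.58, 6 UMIs against 68). In cells of exactly 1 class Slc38a4 had too few UMIs to be compared, and Slc7a7 passed 2-fold beside Slc38a1. In fibroblasts (3) it was 1 in cells of exactly 1 class, 5 with at least 20 UMIs, and 0 with at least 200 UMIs, in clean classes (no UMI of another class's rule genes) and with the rule minimum doubled. In Ptprc+ cells (7) it was 1 in cells of exactly 1 class, 2 with the rule minimum doubled, 2 with at least 200 UMIs, 3 without the highest Scrublet scores and 1 in Ptprc+ cells below the endothelial and tumor minimum, with barcodes of any gene number from 200 up; clean Ptprc+ cells, 2 in PyMT-M, left no member to compare. The direction split in Ptprc+ cells was 4 higher and 2 lower with the mean over cells. Of 479 member ratios recomputed in blood endothelial and tumor-rule cells, 390 stayed within the main interval, 87 moved outside it, and 2 reversed. The reversed ones were Slc38a4 in blood endothelial cells of exactly 1 class (3.28) and Slc43a3 in non-cycling tumor-rule cells (0.47). The alternatives differed widely. In cycling cells only 26 of 43 ratios moved outside, and in clean classes 20 of 42, where 197 PyMT-M and 1987 PyMT-N tumor-rule cells were left. With at most 5% mitochondrial UMIs 0 of 44 did, and without the highest Scrublet scores 0 of 43. The cycling and non-cycling alternatives and the Ptprc+ cells below those minimums were added after the data were seen. Thinned shares fell outside the interval of the unthinned share in 149 of 176 cases, as fewer UMIs give fewer cells with one. Fibroblast and lymphatic cells of PyMT-M (44 and 7) limit what can be read there.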
